A study of Mus musculus with 3 samples.

Results

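The 9 chemokine receptor genes described here were Ccr1, Ccr2, Ccr3, Ccr7, Ccrl2, Cxcr2, Cxcr4, Cx3cr1 and Ackr3, taken as a fixed list of symbols, and all 9 were found among the 55418 annotated gene symbols of the deposited tables. They were measured in 3 ribosome-depleted total RNA libraries that form 1 group. The RNA was the cytosolic fraction of macrophages grown from C57BL/6J mouse bone marrow (primary cells) and stimulated for 90 min with lipid A, the endotoxin anchor of Gram-negative bacteria, at 100 ng/ml. The libraries are numbered as biological replicates 1, 2 and 3 but carry the same donor identifier, and age and sex are recorded as not collected. Whether they came from separate animals or cultures is not stated, so the p-values measure only the spread between these libraries, which may be technical. All 3 libraries were stimulated and none was an untreated control, so each level is a level under lipid A, with no measure of how it changed.

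Chemokine receptors are G protein-coupled receptors through which leukocytes sense chemokines and move along their gradients. Typical receptors couple to inhibitory G proteins, and a conserved Asp-Arg-Tyr (DRY) motif at the inner end of the third transmembrane helix takes part in that coupling. Atypical receptors bind ligand without classical G protein signalling, and scavenge it or present it to other cells. In macrophages and their monocyte precursors, Ccr1, Ccr2 and Cx3cr1 are the best-known receptors for recruitment and residence, and Cxcr4 holds immature cells in the bone marrow.

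The coding stretch around the DRY motif is shown for 1 receptor that stood high, 1 CXC receptor and both atypical members, because it is where the most abundant member departs from the others. Capitals mark the 9 bases aligned with the DRY codons of Ccr1, within 51 coding bases read from the GENCODE M21 transcripts (mm10).
Ccr1: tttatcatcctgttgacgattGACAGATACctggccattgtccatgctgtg
Cxcr4: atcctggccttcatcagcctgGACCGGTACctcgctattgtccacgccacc
Ackr3: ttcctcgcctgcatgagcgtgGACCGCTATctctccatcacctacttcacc
Ccrl2: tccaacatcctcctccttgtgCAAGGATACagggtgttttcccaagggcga
The stretches lie at chr9:123964075-123964125 for Ccr1 and chr1:128589491-128589541 for Cxcr4, both on the minus strand. Those of Ackr3 and Ccrl2 lie at chr1:90214220-90214270 on the plus strand and chr9:111056006-111056056 on the minus strand. Each is within exon 2 of the gene's transcript numbered 201. In Ccrl2-203, the Ccrl2 stretch lies within exon 3. DRY codons were present at this place in 8 of the 9 members, Ackr3 included, and absent in 1, Ccrl2. Over aligned codons, Ccrl2 shared between 43.1% of bases with Cxcr2 and 51.7% with Ccr2. Low identity was not particular to Ccrl2, since Ackr3 shared 43.4% to 49.9% with the other members. The closest pair of members, Ccr1 and Ccr3, shared 66.6%.

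Levels are given as TPM, a measure of transcript abundance scaled to library size and corrected for transcript length. For the test, log2(TPM + 0.1) was taken relative to a reference in the same library, the median of those 8747 protein-coding genes whose mean reached 1 TPM, which stood at 7.38, 6.08 and 6.21 TPM in replicates 1, 2 and 3. A gene was called above or below the reference when limma's one-sample moderated test, with Benjamini-Hochberg adjustment over the 13327 genes whose mean reached 0.1 TPM, gave an adjusted p under 0.05 and the log2 difference was at least 1 in size. Folds are on the log2(TPM + 0.1) scale, which understates differences of low genes. Of the 9 receptors 7 were tested, and 2 were called above (Ccrl2 and Ccr1), 4 below (Ccr3, Ccr2, Ccr7 and Cx3cr1) and 1 neither (Cxcr4). Cxcr2 and Ackr3 were too low to be tested. Over all tested genes, 20.5% were called above and 50.6% below, so the receptors' 28.6% and 57.1% of 7 lay near the shares of genes at large. Over all 9, the median of the mean levels was 1.72 TPM.

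**Figure D1:**
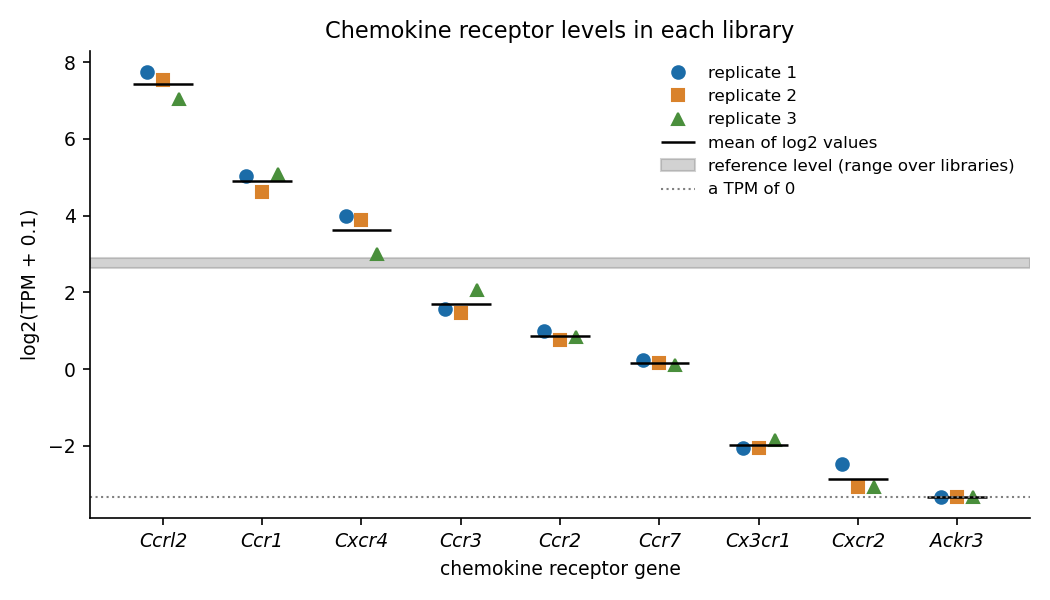
Level of each chemokine receptor gene as log2(TPM + 0.1), with 1 point per library, a black line at the mean and a grey band for the range of the reference over the libraries. Ccrl2 and Ccr1 lie above the band in all 3 libraries, Cxcr4 lies nearest to it from above, and Ackr3 lies at a TPM of 0.

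Among the atypical receptors, Ccrl2 was the most abundant member by a wide margin. Ccrl2 binds chemerin and presents it to the signalling receptor Cmklr1 on neighbouring cells. It stood at 215, 185 and 131 TPM in replicates 1, 2 and 3, a mean of 177 ± 42.4 (SD, n = 3), from 18512, 26834 and 22859 expected counts. Replicate 3 was the lowest, and even there Ccrl2 exceeded the highest value of any other member. It lay 26.1-fold above the reference (log2 difference 4.71 ± 0.29, SD, n = 3, limma adjusted p = 5.02e-05), at the 98.2nd percentile of all tested genes, and was called above under all 10 alternatives tried. The lowest of these values was 3.68, against a reference limited to genes of 5 TPM or more. Ccrl2 made up 79.8%, 80.6% and 72.8% of the summed TPM of the 9 receptors, a mean of 77.7% ± 4.28.

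The transcript that led Ccrl2 in TPM was Ccrl2-203. Ccrl2 lies at chr9:111054486-111057519 on the minus strand (mm10, ENSMUSG00000043953.12) with 3 annotated transcripts. Ccrl2-203, which starts at 111057519, took 68.7%, 74.2% and 73.4% of Ccrl2's TPM in replicates 1, 2 and 3, a mean of 72.1% ± 3.00. Ccrl2-202, which starts at 111057246 and whose annotated coding part is 399 bases against 1080 in the others, took 16.3% ± 2.72. Ccrl2-201, which starts at 111057270, took 11.6% ± 0.37. By expected counts these 2 stood the other way, with 826, 884 and 828 for Ccrl2-202 and 3398, 4556 and 3789 for Ccrl2-201. The annotated model of Ccrl2-202 has 569 bases and that of Ccrl2-201 2459, and TPM is corrected for length. In the second quantification, made by the authors directly from reads, the order in TPM was the same. The shares of Ccrl2-203, Ccrl2-202 and Ccrl2-201 were 60.2% ± 2.29, 29.8% ± 2.21 and 10.03% ± 0.13. The stretch around the DRY position printed above is carried in full by Ccrl2-201 and Ccrl2-203. The annotated model of Ccrl2-202 ends inside that stretch, at 111056030, and carries only its first part.

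**Figure D2:**
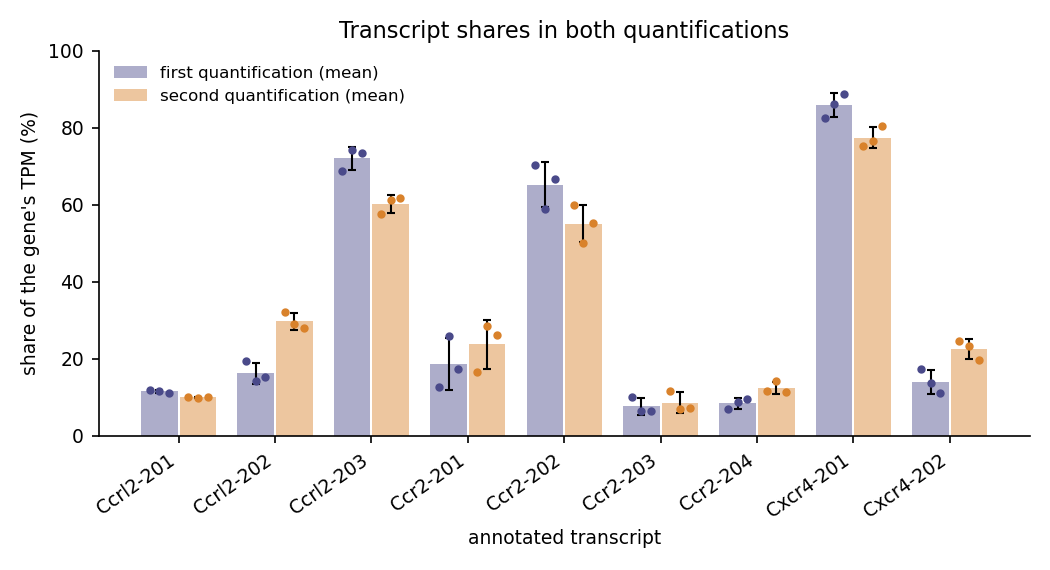
Share of each gene's TPM (%) taken by the annotated transcripts of Ccrl2, Ccr2 and Cxcr4 in the first and the second quantification. Bars show the mean, error bars the SD and points the 3 libraries; Ccrl2-203, Ccr2-202 and Cxcr4-201 lead in both.

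Promoter windows from 250 bases before to 50 after a start were read from RefSeq (GRCm38.p6), where 8 of the 9 members had 10 windows. Ccr7 had no entry. Both strands were searched for the NF-kB consensus (10 bases), the AP-1 motif TGANTCA and the TATA motif TATAAA, and no matches of different motifs overlapped. The bases before the start are shown for the windows of the 3 members on whose levels the results turn and that held a motif. Capitals mark the NF-kB match in Ccrl2 and Ccr3 and the TATA match in Cxcr4, and the AP-1 match of Ccr3 is left in lower case.
Ccrl2: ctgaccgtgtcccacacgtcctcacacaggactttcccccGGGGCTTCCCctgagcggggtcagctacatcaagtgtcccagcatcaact
Ccr3: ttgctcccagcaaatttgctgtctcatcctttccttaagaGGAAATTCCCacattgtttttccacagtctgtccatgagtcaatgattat
Cxcr4: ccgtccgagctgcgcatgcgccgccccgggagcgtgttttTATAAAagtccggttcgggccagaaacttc
The Ccrl2 stretch, at chr9:111057525-111057614 on the minus strand, holds the NF-kB consensus 56 to 47 bases before a start at 111057518, 1 base from that of Ccrl2-203. The other 2 Ccrl2 windows, whose starts lie within 2 bases of those of Ccrl2-202 and Ccrl2-201, held none of the motifs. The NF-kB match lies upstream of those starts as well, beyond where their windows end. The Ccr3 stretch, at chr9:124021752-124021841 on the plus strand, holds the NF-kB consensus read on the minus strand 179 to 170 bases before the start, and the AP-1 motif 144 to 138 bases before it. The Cxcr4 stretch, at chr1:128592300-128592369 on the minus strand, holds TATAAA 30 to 25 bases before the start, overlapped by a match on the other strand 32 to 27 bases before it. Of all 32851 RefSeq promoter windows of this length, 4.51% held the NF-kB consensus, 7.81% the AP-1 motif and 13.6% TATAAA. Of the 10 windows of the members, 2, 1 and 2 held each. They belonged to 2, 1 and 2 of the 8 members, with Ackr3 the other holder of TATAAA. A match describes letters and not binding, and a window without one says nothing about the factor.

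Ackr3, an atypical receptor that scavenges Cxcl12, was at the other end of the range. It lies at chr1:90203980-90216751 on the plus strand (ENSMUSG00000044337.5). It was listed at 0 TPM in all 3 libraries, with 0, 0 and 1 expected counts. A count of 0 was taken to allow up to 3 counts, or 0.0891 and 0.0628 CPM (counts scaled to library size) in replicates 1 and 2. The exact Poisson 95% interval of a count of 0 reaches farther, to 3.69 counts, or 0.11 and 0.0772 CPM. The single count in replicate 3 has an exact Poisson 95% interval of 0.0253 to 5.57 counts, which like the other intervals and floors covers counting error only. The second quantification gave 0, 1 and 5 estimated counts. In replicate 1, Ackr3 RNA was not detectable at this depth by either quantification.

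Of the receptors for inflammatory chemokines, Ccr1 stood high and Ccr3, Ccr2, Cx3cr1 and Cxcr2 low. Ccr1, a receptor for Ccl3, Ccl5 and Ccl9 on monocytes and macrophages, stood at 32.6, 24.6 and 34.1 TPM, a mean of 30.4 ± 5.12 (SD, n = 3), from 5039, 6079 and 10265 counts. In TPM, replicate 2 was the lowest and replicates 1 and 3 were close. Relative to the library reference, the log2 differences were 2.13, 2.00 and 2.44, and replicate 3 lay apart from the others. Ccr1 lay 4.56-fold above the reference (log2 difference 2.19 ± 0.23, limma adjusted p = 0.000175), with 1.16 against the reference of genes of 5 TPM or more and 1.59 in the second quantification. It has 1 annotated transcript of 2 exons at chr9:123962124-123968692 on the minus strand (ENSMUSG00000025804.5).

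Ccr3, the eotaxin receptor best known from eosinophils, stood at 2.85, 2.64 and 4.05 TPM, a mean of 3.18 ± 0.76, from 516, 764 and 1425 counts. Replicate 3 was the highest, the reverse of its place for Ccrl2. The log2 difference from the reference was -1.04 ± 0.39 (limma adjusted p = 0.00647), just past the size a call needs. That call was lost with a pseudocount of 1 TPM (-0.87), with FPKM (-0.83), without replicate 1 (-0.91) and without replicate 2 (-0.96). Markers of eosinophils, basophils and mast cells, 10 listed genes, summed to 1.10, 0.65 and 0.64 TPM in replicates 1, 2 and 3, with Epx, the eosinophil peroxidase, listed at 0. Kit made up 0.60, 0.40 and 0.32 TPM of these sums, and the part of such cells in the level of Ccr3 was not tested. In bulk RNA, a few cells rich in a transcript and many cells with little of it cannot be told apart.

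Ccr2, which guides monocytes out of the marrow toward Ccl2, stood at 1.88, 1.59 and 1.69 TPM, a mean of 1.72 ± 0.15. The 3 libraries differed little. Ccr2 lay 3.65-fold below the reference (log2 difference -1.87 ± 0.05, limma adjusted p = 5.31e-05), and the difference was -2.90 against the reference of genes of 5 TPM or more. Of its 4 annotated transcripts, Ccr2-202 led with 70.2%, 58.9% and 66.7% of Ccr2's TPM, a mean of 65.2% ± 5.81, and with 55.1% ± 4.89 in the second quantification. Ccr2-202 is a single exon at chr9:124105626-124109140 that starts 48 bases before exon 3 of Ccr2-201, within what is an intron of the spliced form. The spliced Ccr2-201 took 18.7% ± 6.70, Ccr2-204 8.43% ± 1.36 and Ccr2-203 7.66% ± 2.12. These shares rest on few counts, 257.9, 290.9 and 425.7 for Ccr2-202 and 39.3, 108.0 and 93.2 for Ccr2-201. Of the 6758 stretches of 50 bases in Ccr2 transcripts, 129 (1.91%) also occurred in transcripts of other genes. Reads from those stretches could be divided between the genes.

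Cx3cr1, the receptor for membrane-bound Cx3cl1 on patrolling monocytes and many tissue macrophages, stood at 0.14, 0.14 and 0.18 TPM from 30, 48 and 72 counts. Cx3cr1 lay 26.3-fold below the reference (log2 difference -4.71 ± 0.24, limma adjusted p = 3.87e-05). The size depended on the pseudocount, with a log2 difference of -2.71 at 1 TPM and -5.33 at 0.01 TPM. The mean of 0.153 ± 0.0231 TPM was just inside the test's minimum of 0.1 TPM, and in the second quantification, at 0.0797 ± 0.0138 TPM, Cx3cr1 fell outside it. Its annotated span, chr9:119901616-120069879 on the minus strand (ENSMUSG00000052336.7), overlaps 9 other genes, since the transcript Cx3cr1-202 reaches far downstream and Cx3cr1-203 reaches upstream. One of those genes, Csrnp1, was at 89.6 ± 14.7 TPM, but Cx3cr1-202 and Cx3cr1-203 received 0 counts in the first quantification, where all counts went to Cx3cr1-201.

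Cxcr2, the neutrophil receptor for Cxcl1, Cxcl2 and Cxcl5, stood at 0.08, 0.02 and 0.02 TPM from 13, 6 and 8 counts. The exact Poisson 95% intervals were 6.92 to 22.2, 2.20 to 13.1 and 3.45 to 15.8 counts. The second quantification assigned it 24.8, 21.4 and 57.3 counts, more in every library. Of its 3039 stretches of 50 bases, 203 (6.68%) occurred in transcripts of 220 other genes, the largest share among the 9 members. Neutrophil markers, 12 listed genes, summed to 40.5 to 60.2 TPM, with S100a9 at 19.3 ± 5.51 and Csf3r at 13.6 ± 0.81 TPM. Ly6g was listed at 0. Of the 9 tested, S100a9 and Csf3r (22.2%) were called above the reference and 5 (55.6%) below. These shares lay near the 20.5% and 50.6% of all tested genes.

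Of the receptors with homeostatic roles, Ccr7 was called below the reference and Cxcr4 was called neither way. Cxcr4, the Cxcl12 receptor, stood at 15.8, 14.6 and 7.88 TPM, a mean of 12.7 ± 4.25, from 1325, 2025 and 1351 counts. Replicate 3 lay apart from the other 2. The log2 difference of 0.89 ± 0.48 had a limma adjusted p of 0.0199 but did not reach the size a call needs. Without replicate 3 it was 1.18 and with FPKM 1.12, both called above, whereas against a reference limited to genes of 5 TPM or more it was -0.14 with an adjusted p of 0.563. Cxcr4-201 took 85.9% ± 3.10 of Cxcr4's TPM and 77.5% ± 2.64 in the second quantification.

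Ccr7, which carries dendritic cells toward Ccl19 and Ccl21a in lymph nodes, stood at 1.07, 1.01 and 0.97 TPM, a mean of 1.02 ± 0.05. It lay 5.94-fold below the reference (log2 difference -2.57 ± 0.10, limma adjusted p = 4.3e-05), with a difference of -3.60 against the reference of genes of 5 TPM or more and -1.90 with a pseudocount of 1 TPM. The gene has 1 annotated transcript of 3 exons at chr11:99144196-99155077 on the minus strand (ENSMUSG00000037944.8), from which 111, 169 and 197 counts came. Dendritic cell markers, 10 listed genes, summed to 7.63 to 9.27 TPM, led by Ccl22 at 5.22 ± 0.73 and Fscn1 at 1.86 ± 0.18 TPM.

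**Figure D3:**
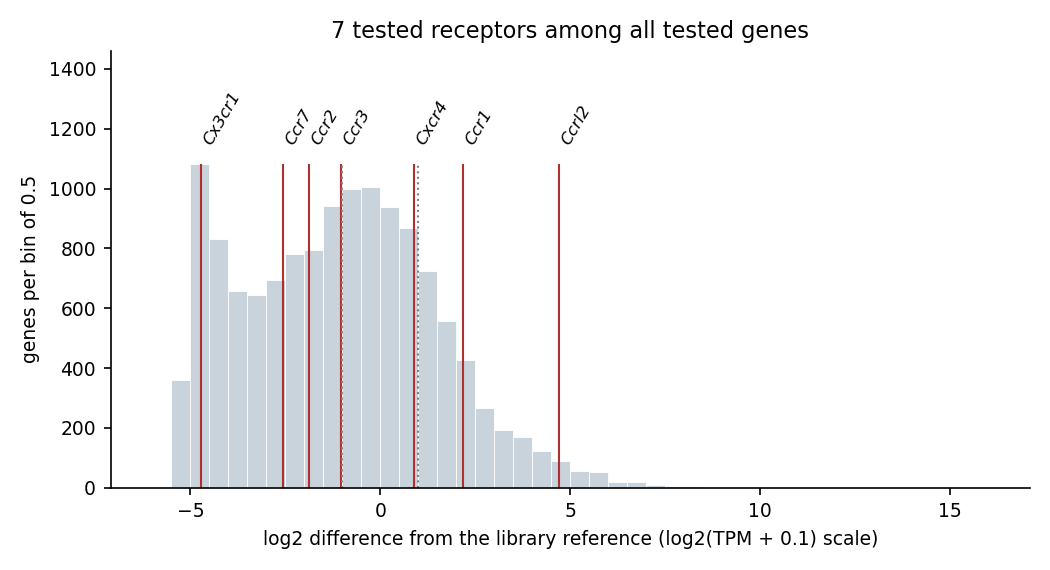
Histogram of the log2 difference from the library reference for all 13327 tested genes in bins of 0.5, with red lines at the 7 tested receptors and dotted lines at -1 and 1. Ccrl2 lies in the upper tail at 4.71, Ccr3 and Cxcr4 lie close to the dotted lines, and Cx3cr1 lies at -4.71.

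The order of the levels was Ccrl2, Ccr1, Cxcr4, Ccr3, Ccr2, Ccr7, Cx3cr1, Cxcr2 and Ackr3. Each of the 8 neighbouring pairs kept its order in 3 of 3 libraries, and no neighbours' ranges overlapped. The widest gaps were 2.52 ± 0.51 log2 units between Ccrl2 and Ccr1 and 2.14 ± 0.18 between Ccr7 and Cx3cr1. Ccr1 exceeded Cxcr4 by 1.30 ± 0.71 and Cxcr4 exceeded Ccr3 by 1.93 ± 0.86, and in both replicate 3, which held the least Cxcr4, lay farthest from the other libraries. Ccr3 exceeded Ccr2 by 0.83 ± 0.34 and Ccr2 exceeded Ccr7 by 0.70 ± 0.08. At the bottom, Cx3cr1 and Cxcr2 differed by 0.88 ± 0.42, but in replicate 1 the intervals of their counts, 20.2 to 42.8 and 6.92 to 22.2, overlapped. Likewise the counts of Ackr3 and Cxcr2 in replicates 2 and 3 had overlapping intervals, so the last places are set by few reads.

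The members also differed in how steady they were between libraries. On a log2 CPM scale normalised by TMM, the SD was 0.46 for Cxcr4, 0.40 for Ccr3, 0.28 for Ccrl2, 0.27 for Cx3cr1, 0.23 for Ccr1, 0.10 for Ccr7 and 0.042 for Ccr2. Over the 12330 genes with at least 10 counts in each library the median SD was 0.12. Cxcr4 lay at the 92.8th percentile, Ccr3 at the 90.2nd and Ccr2 at the 12.8th. Replicate 3 lay in opposite directions for different members: it was the lowest for Ccrl2 and Cxcr4 and the highest for Ccr1, Ccr3, Cx3cr1 and, by little (0.040 from the mean), Ccr2. Replicate 1 was the lowest for Ccr3, Ccr7 and Cx3cr1, and for Cx3cr1 it lay as far from the mean (-0.26) as replicate 3 did (0.27). Replicate 2 departed by 0.36 for Cxcr4, 0.22 for Ccrl2, -0.195 for Ccr1 and -0.14 for Ccr3, and replicate 1 by -0.30 for Ccr3 and 0.16 for Cxcr4. Over all genes, the pairs that agreed least were those with replicate 1. Without replicate 3, the SD was 0.15 for Cxcr4, 0.11 for Ccr3, 0.092 for Ccrl2, 0.095 for Ccr1 and 0.18 for Cx3cr1, but 0.14 for Ccr7. The median over the 7 members went from 0.27 to 0.11. Values without replicate 1 or 2 are not reported here. Replicate 3 was also the deepest library, with 59332546 annotated counts against 33671556 and 47764593 in replicates 1 and 2, and the part of depth in these departures was not tested.

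**Figure D4:**
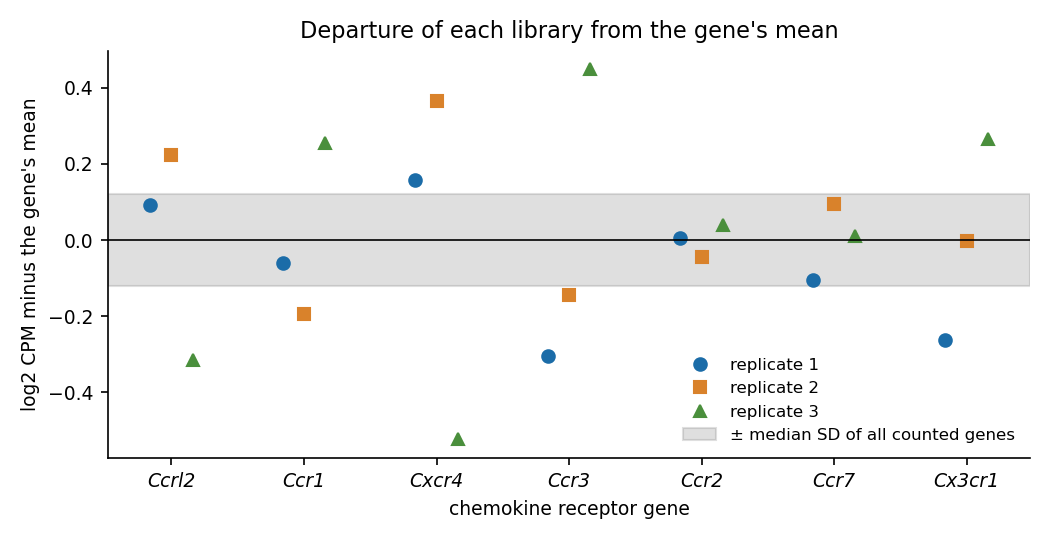
Log2 CPM (TMM) of each library minus the gene's mean for the 7 receptors with at least 10 counts in every library, with a grey band of 1 median SD of all counted genes on either side of 0. Replicate 3 lies below the band for Ccrl2 and Cxcr4 and above it for Ccr1, Ccr3 and Cx3cr1. Each of these genes also has a point of another library outside the band, while all points of Ccr2 and Ccr7 lie inside it.

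Receptors and the ligands paired with them mostly stood at very different levels in the same libraries. The pairs came from textbook knowledge and do not hold every ligand of each receptor. Of 18 pairs, the ligand was higher in 3 of 3 libraries in 11, the receptor in 6, and Cxcr2 with Cxcl5 showed no common order. Ccr1 faced ligands far above it: Ccl3 at 1108 ± 383 TPM, Ccl9 at 376 ± 66.1 and Ccl5 at 304 ± 82.9, with log2 differences of -5.14 ± 0.47, -3.62 ± 0.09 and -3.30 ± 0.46 for receptor minus ligand. Ccr2 and its ligands lay farther apart still, with Ccl2 at 773 ± 223 TPM, Ccl7 at 646 ± 149 and Ccl12 at 63.1 ± 34.9, and differences of -8.70 ± 0.28, -8.45 ± 0.21 and -4.99 ± 0.63. Against Cxcr2, which was near 0, Cxcl2 stood at 412 ± 114, Cxcl1 at 152 ± 20.1 and Cxcl3 at 7.52 ± 2.48 TPM. Cx3cl1, at 0.45, 0.39 and 0.38 TPM, was higher than Cx3cr1 in each, with a receptor minus ligand difference of -1.001 ± 0.21 that was -0.29 with a pseudocount of 1 TPM and -0.77 in the second quantification.

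The receptor stood above the ligands paired with it here for Ccrl2, Cxcr4, Ccr3 and Ccr7. Ccr3 was paired with the eotaxins Ccl11 and Ccl24 only, so its direction holds for them and not for other ligands. The chemerin gene Rarres2, paired with Ccrl2, was listed at 0, 0.01 and 0 TPM, from 0, 2.12 and 0 expected counts. Cxcl12, the ligand shared by Cxcr4 and Ackr3, was at 0.01, 0.04 and 0.05 TPM, from 2, 8 and 15 counts. Ccl19 and Ccl21a, the ligands of Ccr7, were listed at 0 in all 3 libraries, and Ccl11 was at 0.02, 0 and 0.01 TPM. The eotaxin Ccl24 was closer to its receptor, at 2.28, 1.46 and 1.41 TPM, which left Ccr3 higher by 0.86 ± 0.58 log2 units. In the second quantification Ccr3 no longer exceeded Ccl24 in replicate 1, where they stood at 1.33 and 1.37 TPM.

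**Figure D5:**
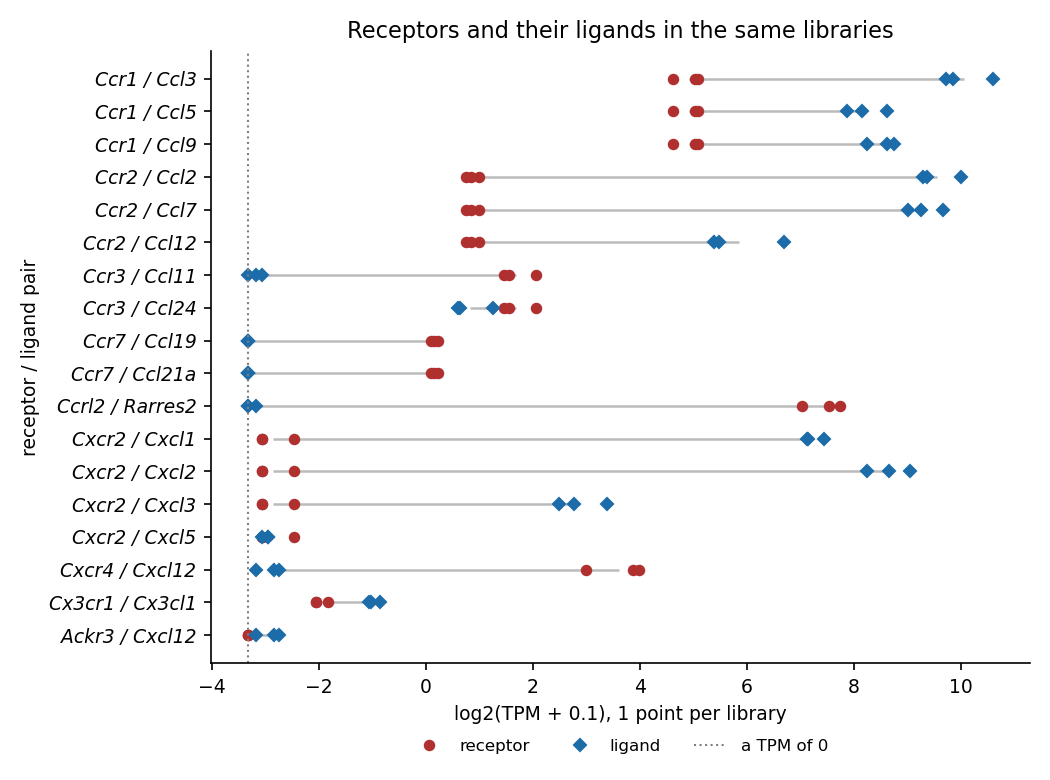
Levels of each receptor (red circles) and its paired ligand (blue diamonds) as log2(TPM + 0.1), with 1 point per library and a grey line between the means. The ligands of Ccr1 and Ccr2 and 3 ligands of Cxcr2 lie far to the right of their receptor, and those of Ccrl2, Cxcr4 and Ccr7 lie at or near the dotted line of a TPM of 0.

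The wider pathway was described from lists of genes. Of 37 ligand genes, 13 were called above the reference, 7 below and 3 neither, and 14 were too low to be tested, with a list median of 0.853 TPM. Of the 23 ligands tested, that is 56.5% above and 30.4% below, against 20.5% and 50.6% of all tested genes. Of 17 other chemokine and chemerin receptors, 0 were called above, 4 below and 2 neither, and 11 were too low to be tested, 6 of them listed at 0. The 4 below were 66.7% of the 6 tested, against 50.6% of all tested genes. With limma's unadjusted p under 0.05 and the same minimum size, 0 were above as well. Cmklr1, the signalling chemerin receptor, was at 8.40 ± 0.58 TPM (log2 difference 0.36 ± 0.12). Cxcr3 was at 1.32 ± 0.40 TPM, and Ccr1l1 and Ccr9 were the lowest tested, at 0.177 ± 0.0289 and 0.160 ± 0.0608 TPM. Of the 9 members 6 had a mean of at least 1 TPM, against 3 of the 17 other receptors. The members were chosen with earlier results of these data known, so these counts cannot be read as a difference between the lists.

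Most signal transducers were called above the reference. Of 18 genes for G protein subunits, phosphoinositide 3-kinase, phospholipase C and the Rac and Cdc42 modules, 13 were called above, 2 below and 3 neither, and the list median was 32.9 TPM. The 13 were 72.2% of the list, against 20.5% of all tested genes. The GTPase Cdc42 stood at 175 ± 27.8 TPM, the inhibitory G protein subunit Gnai2 at 123 ± 14.8 and Gng5 at 105 ± 20.4. The lowest were Plcb2 at 3.05 ± 0.61 and Pik3r6, a regulatory subunit of the kinase that G protein beta-gamma dimers activate, at 1.63 ± 0.35 TPM. Of 11 genes that end receptor signalling (receptor kinases, arrestins and RGS proteins), 6 were called above, 4 below and 1 neither, with a median of 13.6 TPM. These were 54.5% above and 36.4% below, against 20.5% and 50.6% of all tested genes. Rgs1, which speeds GTP hydrolysis by inhibitory G proteins, stood at 288, 234 and 225 TPM, above Ccrl2 in every library. Arrb2 was at 39.5 ± 3.93 and Grk2 at 27.5 ± 2.38 TPM, and Grk5 and Rgs16 were the lowest, at 0.937 ± 0.127 and 0.213 ± 0.0321 TPM.

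Among 91 other genes of the receptors, ligands, transducers and desensitizers, the levels most like Ccrl2's were those of Cdc42, Pf4 and Cxcl1, with root mean square log2 differences of 0.23, 0.42 and 0.49 over the 3 libraries. None of these was lowest in replicate 3, as Ccrl2 was: Cdc42 stood at 206, 155 and 162 TPM, Pf4 at 179, 131 and 179, and Cxcl1 at 139, 142 and 175. Nearest to Cxcr4 were Rgs2 at 15.2, 15.3 and 10.3 TPM, Rgs19 at 14.0, 14.9 and 12.1 and Arrb1 at 20.6, 15.8 and 13.1, with root mean square differences of 0.23, 0.37 and 0.48. In TPM all 3 were lowest in replicate 3, as Cxcr4 was. Relative to the library reference this held for Rgs2 and Arrb1. Rgs19 was then lowest in replicate 1, with log2 differences of 0.9095, 1.275 and 0.9559 in replicates 1, 2 and 3.

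Neighbours on the chromosome stood at unlike levels. On chromosome 9, Ccr1, Ccr1l1, Ccr3 and Ccr2 follow each other, and their means were 30.4, 0.177, 3.18 and 1.72 TPM, with Xcr1 on the near side of Ccr1 at 0.353 ± 0.0929. Ccr3 and Ccr2 lie 70260 bases apart, at chr9:124021972-124031689 and chr9:124101950-124113557, both on the plus strand (ENSMUSG00000035448.9 and ENSMUSG00000049103.14). Ccrl2 lies elsewhere on the chromosome, 11718 bases from Ltf, the lactoferrin gene of neutrophil granules, which was at 0.62, 0.55 and 1.62 TPM, and 60072 bases from Lrrfip2 at 14.3 ± 1.56. Ltf was highest in the library where Ccrl2 was lowest. Next to Cxcr4, at chr1:128588199-128592293 on the minus strand (ENSMUSG00000045382.6), were Dars at 13.7 ± 0.96 TPM and Thsd7b, listed at 0. Cxcr2, at chr1:74153989-74161246 on the plus strand (ENSMUSG00000026180.8), has Cxcr1 at 0.01 ± 0.01 TPM and Rufy4, listed at 0, as neighbours. Ccr7 lies between Tns4 at 0.10 ± 0.01 and Smarce1 at 13.9 ± 0.46, and Ackr3 between Iqca, listed at 0, and Cops8 at 8.68 ± 0.51. Ccr8, next to Cx3cr1, and Scn11a on its other side were listed at 0.

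The label of the cells was checked against marker lists. Of 10 macrophage markers, 9 (90%, against 20.5% of all tested genes) were called above the reference, led by Lyz2 at 4347 ± 1009 and Cd68 at 599 ± 67.6 TPM. Monocyte markers summed to 5.21 to 6.76 TPM, with Ly6c2 at 2.80 ± 0.39 and Plac8 at 2.68 ± 0.54 and Ly6c1 listed at 0. Outside the macrophage list, the neutrophil markers, described with Cxcr2, had the largest sum of the marker lists. Lymphocyte markers summed to 0.04 to 0.22 TPM, with Cd79a at 0.0233. Stromal and endothelial markers summed to 2.41 to 2.72 TPM, with Kdr at 1.98 ± 0.38 and Cdh5 at 0.233 ± 0.224, and Lum listed at 0. Kit and Prss34 led the eosinophil, basophil and mast cell list at 0.440 ± 0.144 and 0.117 ± 0.0208 TPM. The part of any of these cells in the receptor levels was not tested.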

How the data were processed

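Total RNA of 3 libraries, made from 1 µg of RNA each per the labels, was analysed as 1 group. The authors deposited, per the file headers, expected counts, TPM and FPKM for genes and transcripts (the first quantification) and estimated counts and TPM for transcripts (the second). The text files deposited beside them state mm10 and GENCODE M21, the first from transcriptome alignments and the second straight from reads. Tool names were not given in the sources used here, nor was the use of strand. Genes that overlap may therefore share reads. Of 81881 entries 55536 were annotated genes; the others, holding 0.443%, 0.164% and 0.0982% of the expected counts of replicates 1, 2 and 3, were left out, and symbols with several identifiers were summed. Deposited TPM is rounded to 2 decimals.

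Levels were tested with limma 3.58.1 in R 4.3.3 and checked on simulated data. An exact sign-flip test of 1 gene over 3 libraries cannot go below p = 0.25, so only the fit across all genes was used. Spread used TMM factors (edgeR 4.0.16, prior count 2, expected counts rounded to whole numbers) or DESeq2 1.42.0 size factors. Coding and promoter sequences were handled with Biopython 1.88. No library pair agreed within sampling noise (chi-square per degree of freedom 38.4 for replicates 2 and 3, 89.9 for 1 and 2 and 135 for 1 and 3).

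Members and gene lists were chosen with earlier results of these data known. The text names the 9 members, their paired ligands and neighbours, the 3 highest and 2 lowest tested genes of the other receptors, transducers and desensitizers, the 2 highest genes of each marker list, and the 3 genes most like Ccrl2 and Cxcr4. Genes named for being at 0 (Epx, Ly6g, Ly6c1 and Lum) were added after their values were seen. Some genes that this rule picks are not reported here. Alternatives changed the pseudocount, filter, reference, unit, quantification, normalization and libraries used.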

Additional observations from a re-analysis of the deposited data

How the results depend on the processing

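The order of the 9 receptors, read over 8 neighbouring pairs, was kept in the second quantification. A pseudocount of 1 TPM or leaving out 1 replicate could not change it, since every pair kept its order in 3 of 3 libraries. Between 2 and 3 members were called above and 3 to 5 below. Over all tested genes, the counts ranged from 1422 to 3089 above and from 2694 to 14489 below. Of 68 alternative values of single members, 61 kept their direction and call, 4 lost a call (all Ccr3) and 2 gained one (Cxcr4). Among the 68 are changes of the filter, which leave a log2 difference as it was, so that only the adjusted p could change. Of 90 receptor minus ligand values, 23 moved by more than the SD over libraries, all with a pseudocount of 1 TPM or the second quantification. Only Cxcr2 minus Cxcl5, which had no common order, changed sign (0.12 to -0.058 without replicate 1). Against a reference limited to genes of 5 TPM or more, Cxcr4 (-0.14), Cxcl3 (-0.88), Cmklr1 (-0.67) and Rgs2 (-0.0030) moved below the reference. There, 5 transducers were called below and 3 desensitizers above. Genes at large moved the same way, with 1422 called above and 8812 below, against 2726 and 6742 with the main reference. With no filter on low values, 9 other receptors and 16 ligands were called below, since more genes were tested, and 14489 of all genes were. With a filter of 1 TPM, where fewer were tested, the counts below were 1 other receptor, 2 ligands and 2 desensitizers, and 2694 of all genes. With the second quantification, 2 other receptors were called below, 3 desensitizers above, Cxcl3 was at -0.43 and the share of Ccrl2-203 was 60.2%. Of all genes, 7461 were then called below and 2070 above. With a pseudocount of 1 TPM or FPKM, 1 transducer was called below, beside 6339 and 7713 of all genes. With 1 replicate left out at a time, Cxcl3 ranged from -0.12 to 0.31. Where no value shows it, the cause was not tested. Members below a filter have no value under it.

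No paired analysis was possible because all 3 libraries form 1 group. With 3 libraries and no control, neither a response to lipid A nor variation between animals can be read from these levels, and values under about 0.1 TPM rest on few reads.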
